A study of Rattus norvegicus with 4 samples.

Results

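Nitric oxide, arginine and polyamine metabolism share the amino acid arginine, and 10 enzymes and regulators of these routes were followed here in RSC96, an established cell line from rat Schwann cells (peripheral nerve glia). The genes were Nos2, Gch1, Ass1, Asl, Arg1, Arg2, Odc1, Oaz1, Srm and Sat1. For short, all 10 are called enzymes below, although Oaz1 encodes a regulator and not an enzyme. They were taken by symbol from the gene table, using the row with the highest mean where a symbol had several, and all 10 were among the 17244 symbols of that table. Cells of generation 4 were first kept overnight without serum. The IL-22 group then received recombinant rat IL-22, which belongs to the IL-10 cytokines, at 100 ng/ml for 48 h, and the control group received the solvent alone (bovine serum albumin at 0.1%) for a time that is not stated. Each group had 2 libraries of poly(A) RNA from this 1 line, and no label says that they came from separate cultures, so the p-values cover the spread among these libraries alone, and that spread may be technical. The series title names Schwann cell proliferation and the regeneration of nerves as its subject.

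Levels are FPKM, which divide fragments by transcript length and library size, so that genes of 1 library can be set side by side. Each difference is the IL-22 mean less the control mean of log2(FPKM + 1), given with its limma standard error, and a gene was called when its Benjamini-Hochberg adjusted p over all 9485 tested rows was under 0.05. Rows were tested when their mean over the 4 libraries was at least 1 FPKM. The number of reads is unknown. The spacing between low values placed the deepest library at 1.28 times the depth of the shallowest. The ribosomal RNA row Rn28s was at 4015 and 2715 FPKM in controls and listed at 0 in both IL-22 libraries, and its part in the results below was not tested. Of 13 Schwann cell markers with a row, 8 were under 1 FPKM in every library, among them Sox10, S100b and Ngfr at no more than 0.119 FPKM and Cdh19 and Mbp listed at 0. The other 5 were expressed and called: Ncam1 went from 24.4 to 36.2 FPKM in the group means, Pmp22 from 19.2 to 41.6, Egr2 from 0.460 to 5.11, Erbb3 from 0.752 to 1.57 and Gfap from 1.68 down to 0.653 (limma adjusted p = 7.95e-06 to 0.0181), of which Egr2, Erbb3 and Gfap passed the minimum through 1 group only. The summed level of all 13 was 46.0 and 48.9 FPKM without IL-22 and 82.4 and 89.3 FPKM with it, and its part in the results was not tested. The fibroblast markers Thy1 and Col1a2 were high, at 201 to 242 and 144 to 186 FPKM, while Dcn, Lum and Postn were listed at 0. Of 9 fibroblast markers 5 were tested, with 3 called higher and 2 lower. Fbln1 rose from 8.82 to 19.6 FPKM in the group means, and Col1a1 fell from 10.0 to 6.52 FPKM. The part of these markers in the results was not tested.

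Nitric oxide synthases make nitric oxide and citrulline from arginine and need tetrahydrobiopterin, whose first and rate-limiting step is catalysed by GTP cyclohydrolase, the product of Gch1. Argininosuccinate synthase (Ass1) and argininosuccinate lyase (Asl) turn citrulline back into arginine, and the arginases Arg1 and Arg2 cleave arginine into urea and ornithine. Ornithine decarboxylase (Odc1) makes putrescine from ornithine, spermidine synthase (Srm) extends it, antizyme (Oaz1) directs ornithine decarboxylase to the proteasome, and spermidine/spermine acetyltransferase (Sat1) starts polyamine breakdown. In peripheral nerve, arginase and polyamines are known for their roles after injury, and Nos2 is the inducible synthase of inflammation.

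With IL-22, Nos2, Gch1, Asl and Sat1 rose, Srm fell, and Odc1 and Oaz1 did not pass the test. Arg1, Arg2 and Ass1 were too low to be tested. Across all tested rows 27.6% were called higher and 30.8% lower, against 4 and 1 of the 7 tested enzymes. A call in either direction was made for 58.4% of all rows and for 5 of the 7. Nos2 passed the minimum only through the IL-22 libraries. Of the 6 others 3 were higher and 1 lower, so that 4 were called. The number of calls alone thus does not set these enzymes apart. Their median difference was 0.74, or 0.37 over the 6 other than Nos2, beside -0.022 over all rows. These enzymes were chosen with earlier results of these data known, so this median does not set them apart either. Bulk RNA cannot tell a change in every cell from a change in the share of cells that express a gene.

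**Figure D1:**
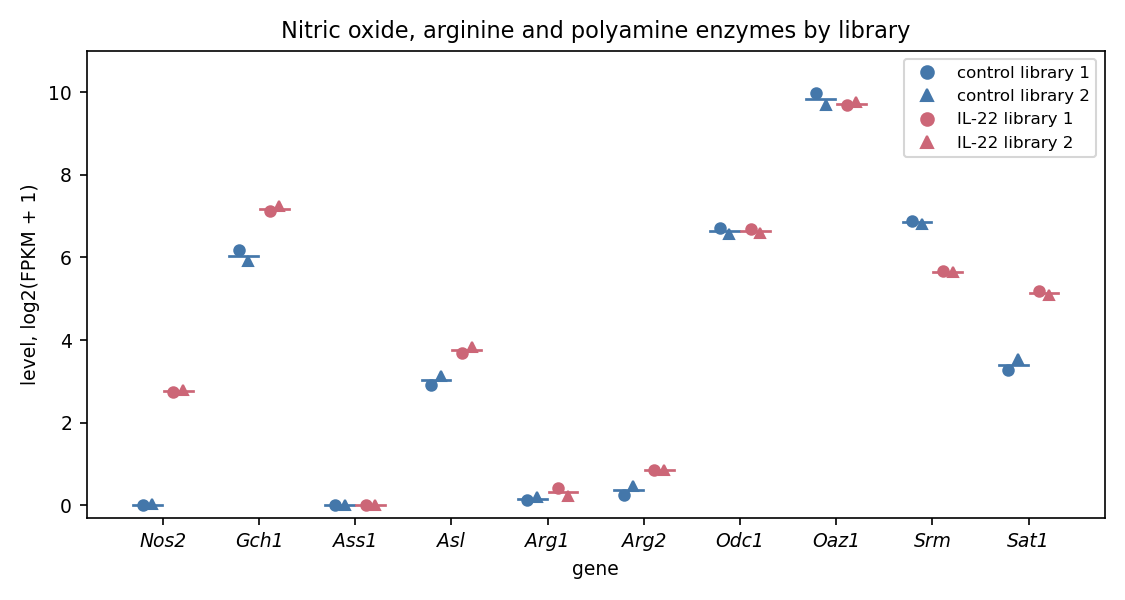
Level of each of the 10 enzymes in each library as log2(FPKM + 1), with circles for library 1, triangles for library 2 and a line at the group mean. Nos2, Gch1, Asl and Sat1 lie higher in both IL-22 libraries, Srm lies lower, Odc1 and Oaz1 overlap, and Ass1 is at 0 throughout.

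Promoter sequences were read from RefSeq (GRCr8) for the 7 enzymes that had an entry, since these enzymes moved in different directions. The 4 windows below hold the 250 bases before the start of Srm, which fell, of Oaz1, which did not pass, and of Gch1 and Sat1, which rose. They are written 5′ to 3′ on the strand of the gene, and capitals mark every match on either strand to the motifs searched.
Srm, chr5:164308752-164309001, plus strand: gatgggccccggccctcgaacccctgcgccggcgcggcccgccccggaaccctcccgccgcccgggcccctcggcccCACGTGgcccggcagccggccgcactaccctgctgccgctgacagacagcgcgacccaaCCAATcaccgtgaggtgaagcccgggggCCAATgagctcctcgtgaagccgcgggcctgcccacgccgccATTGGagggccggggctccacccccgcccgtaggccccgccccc
Oaz1, chr7:9536991-9537240, minus strand: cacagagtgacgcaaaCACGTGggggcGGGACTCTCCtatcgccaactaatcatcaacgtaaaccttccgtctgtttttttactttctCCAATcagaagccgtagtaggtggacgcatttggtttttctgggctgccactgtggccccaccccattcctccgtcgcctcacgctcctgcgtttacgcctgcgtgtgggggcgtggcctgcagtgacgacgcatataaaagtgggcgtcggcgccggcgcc
Gch1, chr15:22917413-22917662, minus strand: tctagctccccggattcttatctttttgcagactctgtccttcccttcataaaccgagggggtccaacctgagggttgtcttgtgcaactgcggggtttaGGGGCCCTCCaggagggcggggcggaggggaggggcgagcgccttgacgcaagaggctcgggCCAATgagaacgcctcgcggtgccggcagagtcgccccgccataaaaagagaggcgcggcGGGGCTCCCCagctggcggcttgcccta
Sat1, chrX:44007839-44008088, plus strand: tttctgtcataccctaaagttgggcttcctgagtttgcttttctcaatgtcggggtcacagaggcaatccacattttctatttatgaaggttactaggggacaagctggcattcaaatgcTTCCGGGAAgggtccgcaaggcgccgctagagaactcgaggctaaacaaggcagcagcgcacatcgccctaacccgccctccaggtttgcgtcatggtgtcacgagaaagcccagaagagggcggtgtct
The motifs were the E-box CACGTG, the STAT motif TTCNNNGAA, the C/EBP-ATF motif TGATGNAA, the cyclic AMP response element TGACGTCA, the CCAAT box and the NF-kappaB consensus, and no 2 of the matches overlap.

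The Srm and Oaz1 windows each hold 1 E-box, found in 5.59% of the 33469 windows of the table. That of Srm starts 173 bases and that of Oaz1 234 bases before the start of the gene, so the enzyme gene that fell and the antizyme gene that did not pass both carry these letters. The STAT motif occurs once in the Sat1 window, 130 bases before the start, and in 7.67% of all windows. NF-kappaB matches stand in the Gch1 window at 150 and 28 bases and in the Oaz1 window at 223 bases before the start, and 6.33% of all windows hold one. CCAAT boxes, present in 34.0% of all windows, number 3 in Srm, 1 in Oaz1 and 1 in Gch1. The C/EBP-ATF motif (3.40% of all windows) and the cyclic AMP response element (1.59%) were found in none of the 7 windows, and the windows of Odc1, Asl and Ass1 hold none of the 6 motifs. These matches describe letters in a short window and say nothing of binding.

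Nos2 encodes the inducible nitric oxide synthase. It was listed at 0 in control library 1 and at 0.0252 FPKM in control library 2, and measured 5.69 and 5.91 FPKM with IL-22. Both IL-22 libraries thus lay well above both controls and close to each other. The difference was 2.75 ± 0.15 (limma adjusted p = 1.45e-06), the 26th highest of all tested rows. As Nos2 passed the expression minimum through 1 group, a tested row of this kind had to differ. Its size rests on the pseudocount, at 5.72 with a pseudocount of 0.1 and 1.11 with one of 5, and no fold is given against a control near 0.

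Macrophage markers were read beside Nos2 and the arginases, which macrophages also express. Of 17 markers 14 were under 1 FPKM in every library, and Aif1, Adgre1 (listed as Emr1), Mrc1, Tyrobp and Marco were listed at 0 throughout. Ptprc, the pan-leukocyte marker CD45, was at 0 in 3 libraries and at 0.0252 FPKM in IL-22 library 1. The summed level of the list was 5.59 and 5.36 FPKM without IL-22 and 9.21 and 6.48 FPKM with it, and Cd14 and Cd74 made up most of it in the IL-22 libraries. Cd74 was the 1 marker called of 3 tested, at 0.706 and 1.77 FPKM in the group means (limma adjusted p = 0.00983), and it passed the minimum through the IL-22 libraries only.

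Gch1 was at 70.9 and 59.6 FPKM without IL-22 and 137 and 151 FPKM with it. The groups did not overlap, which was so for 5 of the 7 tested enzymes and for 80.1% of all tested rows. Without Nos2 it was so for 4 of 6. Mean levels were 65.2 ± 8.0 (SD, n = 2) and 144 ± 9.48 FPKM, a 2.21-fold rise (1.14 ± 0.09, limma adjusted p = 1.15e-05). Gchfr, which encodes the feedback regulator that binds GTP cyclohydrolase, rose from 193 ± 0.947 to 265 ± 11.1 FPKM (0.45 ± 0.06, limma adjusted p = 0.000272). Sepiapterin reductase (Spr), the last enzyme of the cofactor route, went the other way, from 87.0 ± 10.9 to 67.7 ± 1.21 FPKM (-0.35 ± 0.09, limma adjusted p = 0.00715), a difference of -0.23 without control library 1. Pts, which catalyses the step after Gch1, measured 4.62 and 4.53 FPKM in the group means, and Pts, Pcbd1 and Qdpr did not pass. The list of cofactor genes thus had 1 member higher and 2 lower of 6 tested, with a median of 0.017. Among all tested rows 27.6% were called higher and 30.8% lower.

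Other genes of nitric oxide signalling were mostly low or not listed above 0. Of 14 genes 10 were not tested, among them the neuronal synthase Nos1 and the soluble guanylate cyclase subunits Gucy1a3, Gucy1a2, Gucy1b3 and Gucy1b2, the receptors for nitric oxide, all listed at 0 in every library. The endothelial synthase Nos3 stayed under the test's minimum, at 0.227 and 0.152 FPKM without IL-22 and 1.02 and 1.17 FPKM with it. Without that minimum Nos3 was called higher (0.81, limma adjusted p = 0.00369). Endothelial markers gave a summed level of 10.5 and 12.6 FPKM without IL-22 and 12.7 and 14.0 FPKM with it, mostly Egfl7. Egfl7 was not called (limma adjusted p = 0.0704). Of 10 markers 8 were under 1 FPKM in every library, with Emcn listed at 0. Tek was at 1.45 and 1.24 FPKM without IL-22 and 0.361 and 0.232 FPKM with it, and was not tested. Low markers went both ways. In the group means Vwf went from 0.0727 to 0.609 FPKM and Pecam1 from 0.309 to 0.118 FPKM. Ddah1 and Ddah2, which degrade the methylarginines that inhibit nitric oxide synthases, were the 2 genes called higher of 4 tested. The share called higher over all tested rows was 27.6%. Ddah1 rose 2.10-fold from 7.96 ± 0.418 to 16.7 ± 1.20 FPKM (0.98 ± 0.10, limma adjusted p = 4.25e-05). Ddah2 rose from 38.3 ± 0.463 to 46.4 ± 1.46 FPKM (0.27 ± 0.07, limma adjusted p = 0.00871), a call lost without IL-22 library 2 (limma adjusted p = 0.0848, and 0.00241 to 0.0848 over 14 alternatives). Nosip, which encodes a partner of nitric oxide synthases, measured 52.5 and 53.9 FPKM, which was not called (limma adjusted p = 0.698).

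Ass1 was listed at 0 in all 4 libraries, so the ratio of Ass1 to Asl could not be formed. Asl, the next enzyme of the same cycle, measured 6.59 and 7.75 FPKM without IL-22 and 12.0 and 13.3 FPKM with it. Its groups did not overlap, and it rose 1.76-fold (0.74 ± 0.11, limma adjusted p = 0.000453). Arg1, the cytosolic arginase, was at 0.0923 and 0.144 FPKM without IL-22 and 0.341 and 0.170 FPKM with it. Arg2, the mitochondrial arginase, was at 0.195 and 0.381 FPKM without IL-22 and 0.813 and 0.812 FPKM with it. Both arginases were thus below 1 FPKM in every library, Arg2 was above Arg1 in each, and the IL-22 values of both lay above the control values. The groups did not overlap for 80.1% of all tested rows either, but those rows have a mean of at least 1 FPKM. No such share was taken over rows as low as the arginases. Values this low may rest on few reads, whose number is unknown. Without the expression minimum Arg2 was called (0.50, limma adjusted p = 0.0174) and Arg1 was not (0.16, limma adjusted p = 0.201).

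Of the 4 tested genes on the list of arginine transport, which includes a heavy chain that pairs with carriers, all but 1 rose. Slc7a1, the main cationic amino acid transporter of most cells, was at 14.0 and 14.2 FPKM without IL-22 and 35.0 and 32.8 FPKM with it (1.21 ± 0.08, limma adjusted p = 4.07e-06). Slc7a7, which exchanges cationic for neutral amino acids, rose 4.13-fold from 4.83 ± 0.960 to 20.0 ± 0.731 FPKM (1.86 ± 0.12, limma adjusted p = 4.2e-06). Slc3a2, the heavy chain with which Slc7a7 pairs, rose 2.19-fold to 189 ± 0.394 FPKM (1.12 ± 0.06, limma adjusted p = 1.71e-06). Slc7a6, another light chain of Slc3a2, fell by 0.44 (limma adjusted p = 0.00875), a call lost if control library 2 or IL-22 library 2 was left out (0.00199 to 0.0773 over 14 alternatives by limma adjusted p). Slc7a2, the transporter that often accompanies Nos2 in macrophages, was listed at 0 in every library, and Slc7a3 stayed under the minimum at 0.0632 and 0.0493 FPKM without IL-22 and 0.817 and 0.583 FPKM with it. Without that minimum Slc7a3 was called higher (0.68, limma adjusted p = 0.00722). The list therefore had 3 genes higher and 1 lower of 4 tested, with a median of 1.16. Among all tested rows 27.6% were called higher and 30.8% lower.

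Ornithine is also made into and from proline, and there the enzymes of the same step split. Pycr1, a mitochondrial pyrroline-5-carboxylate reductase that makes proline, was at 5.86 and 7.87 FPKM without IL-22 and 46.7 and 46.3 FPKM with it, a 6.77-fold rise (2.61 ± 0.12, limma adjusted p = 5.02e-07). Its paralog Pycr3, listed as Pycrl, fell from 45.5 ± 0.788 to 30.7 ± 0.231 FPKM (-0.55 ± 0.07, limma adjusted p = 0.000172). Pycr3 thus stood above Pycr1 in both controls, and in both IL-22 libraries Pycr1 stood above Pycr3. Aldh18a1, which makes pyrroline-5-carboxylate from glutamate, rose 2.96-fold from 13.0 ± 0.309 to 38.5 ± 2.19 FPKM, and Aldh4a1, which oxidises it back to glutamate, rose from 51.9 ± 1.73 to 97.0 ± 3.29 FPKM. Ornithine aminotransferase (Oat), which links ornithine to that pool, was at 80.8 and 78.7 FPKM without IL-22 and 67.1 and 72.8 FPKM with it, a call (limma adjusted p = 0.0423) that was lost under 7 of 14 alternatives, among them the removal of any 1 library (0.0291 to 0.331 over all 14 by limma adjusted p).

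The urea cycle genes Cps1, Otc and Nags were at most 0.293 FPKM in any library. Gamt, which makes creatine from guanidinoacetate, fell 2.23-fold to 6.16 ± 0.614 FPKM (limma adjusted p = 0.000123), while Gatm, which makes guanidinoacetate from arginine, was at most 0.0844 FPKM. Slc25a2, a mitochondrial ornithine carrier, rose by 0.69 (limma adjusted p = 0.00682), a difference of 0.29 with a pseudocount of 5 and a call lost without control library 2 (limma adjusted p = 0.0566, and 0.00128 to 0.0566 over 13 alternatives). Slc25a15, the main ornithine carrier, measured 3.0 and 3.03 FPKM and did not pass. In all, 5 genes of the list of ornithine, proline and urea metabolism were higher and 4 lower of 11 tested, with a median of 0.011. Over all tested rows the shares were 27.6% higher and 30.8% lower. The ornithine list also holds Azin2, 1 of the 5 higher genes, which is described with the controllers of ornithine decarboxylase.

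**Figure D2:**
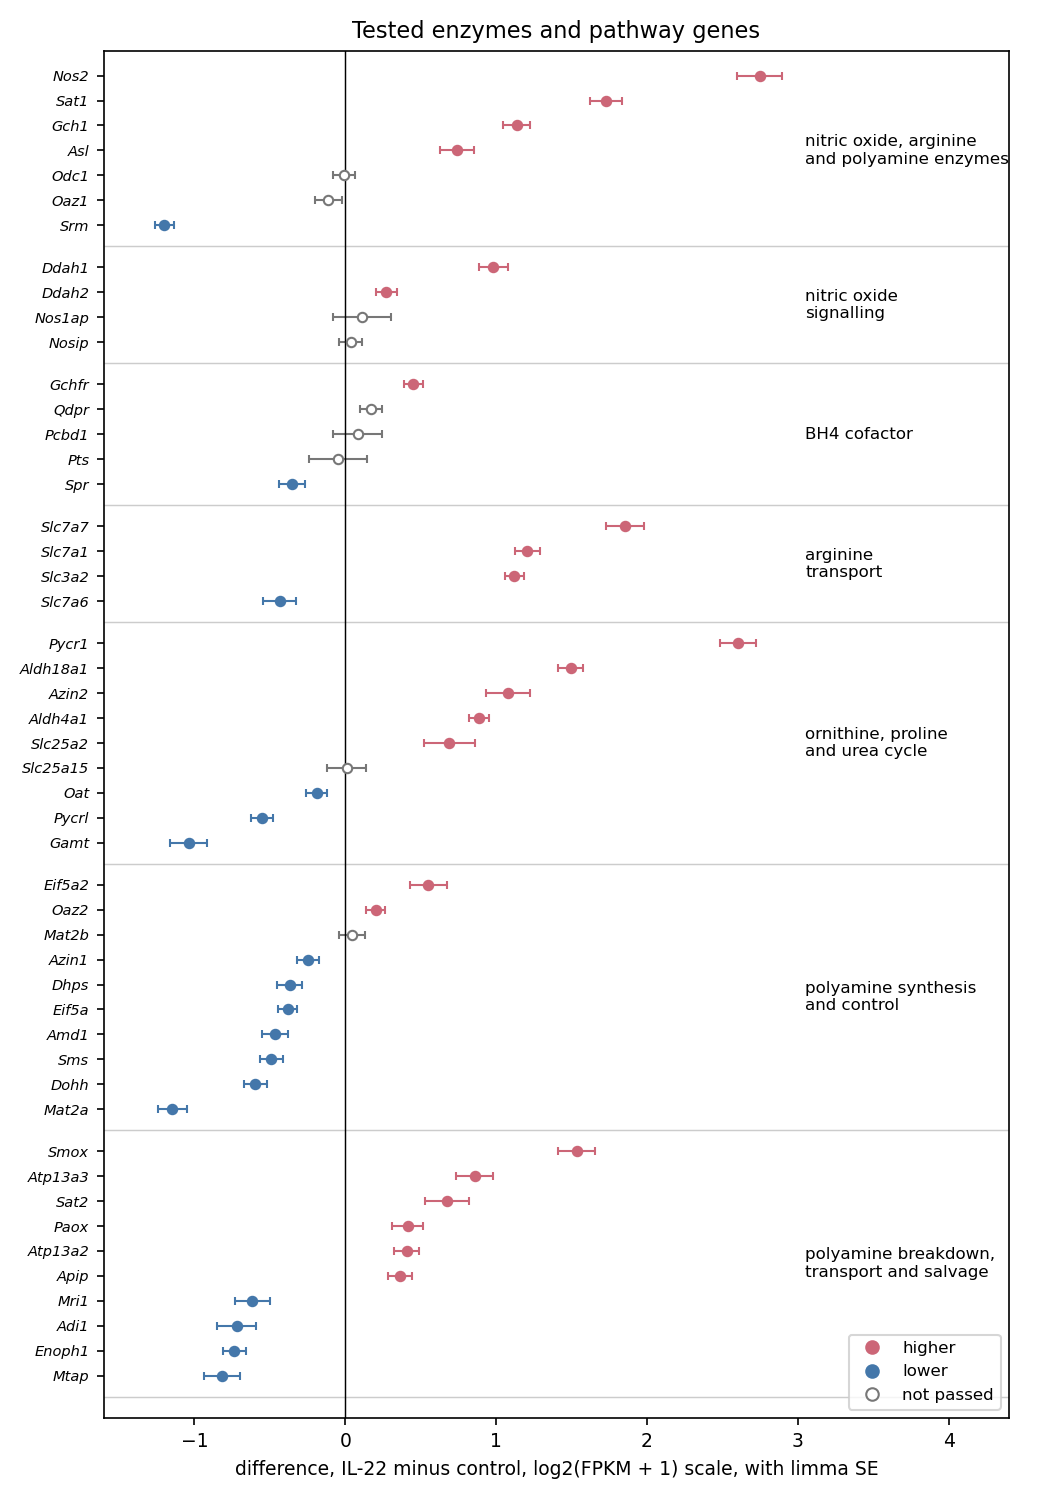
Difference of the tested enzymes and pathway genes, IL-22 less control in log2(FPKM + 1), with its limma standard error, grouped by route. Red points were called higher, blue points lower, and open grey points did not pass. Enzymes of polyamine synthesis lie mostly left of 0, and Sat1, Smox, Sat2 and Paox lie to the right.

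Odc1 was at 105 and 94.1 FPKM without IL-22 and 102 and 95.5 FPKM with it. The 4 values interleave, with a difference of -0.0091 ± 0.074 (limma adjusted p = 0.926), smaller than the spread between libraries of a group. Oaz1 was the most abundant of the 10 genes, at 1003 and 824 FPKM without IL-22 and 823 and 860 FPKM with it. Control library 1 stood above the other 3 libraries, and the difference of -0.11 ± 0.09 did not pass (limma adjusted p = 0.318). It was called lower without control library 2 (-0.25, limma adjusted p = 0.0248) and with quantile normalization (-0.21, limma adjusted p = 0.0407), and it was 0.031 without control library 1 (0.0248 to 0.678 over 14 alternatives by limma adjusted p). The direction of Oaz1 thus depends on which control library is kept.

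The ratio of Odc1 to Oaz1 was 0.104 and 0.114 in controls and 0.124 and 0.111 with IL-22, so these values overlap too. Other controllers of ornithine decarboxylase changed by different amounts. Antizyme inhibitor 1 (Azin1), which frees ornithine decarboxylase from antizyme, fell from 33.1 ± 0.673 to 27.8 ± 0.273 FPKM (-0.24 ± 0.07, limma adjusted p = 0.0177), a call lost under quantile normalization and after removal of control library 2 or of either IL-22 library (0.014 to 0.103 over 14 alternatives by limma adjusted p). Its relative Azin2 rose from 1.89 ± 0.436 to 5.07 ± 0.113 FPKM (1.08 ± 0.15, or 0.55 with a pseudocount of 5, limma adjusted p = 0.000262). Antizyme 2 (Oaz2) rose from 106 ± 2.98 to 122 ± 2.87 FPKM (0.20 ± 0.06, limma adjusted p = 0.0216), a call lost without the trend and after removal of control library 2 or of either IL-22 library (0.0114 to 0.174 over 14 alternatives by limma adjusted p).

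Srm was at 117 and 112 FPKM without IL-22 and 49.5 and 48.9 FPKM with it. The libraries of each group lay close together and far from those of the other, and spermidine synthase fell 2.32-fold (-1.20 ± 0.07, limma adjusted p = 1.4e-06). The table holds a further Srm row whose values differ from these by at most 0.153%, and it gave a difference of -1.20 as well. In both controls Srm stood above Odc1, and in both IL-22 libraries Odc1 stood above Srm.

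Enzymes that supply or use the same aminopropyl groups fell with Srm. Mat2a, the catalytic subunit that makes S-adenosylmethionine, was at 63.5 and 53.3 FPKM without IL-22 and 26.7 and 24.9 FPKM with it (-1.14 ± 0.09, limma adjusted p = 1.32e-05). Amd1, which decarboxylates S-adenosylmethionine to give the donor for Srm, was at 34.1 and 30.0 FPKM without IL-22 and 23.7 and 22.1 FPKM with it (-0.47 ± 0.09, limma adjusted p = 0.00168). Spermine synthase (Sms), which adds the next aminopropyl group, was at 30.3 and 31.3 FPKM without IL-22 and 21.9 and 21.4 FPKM with it (-0.49 ± 0.08, limma adjusted p = 0.000535). Mat2b, the regulatory subunit of the S-adenosylmethionine enzyme, measured 22.4 and 23.2 FPKM, which was not called (limma adjusted p = 0.661). Grouped by reaction after their values were seen, 4 of these 6 synthesis enzymes were lower and 0 higher, while Odc1 and Mat2b were not called. Calls thus cover 66.7% of the group, beside 58.4% of all rows called in either direction and 30.8% called lower. As the group was formed after the fact, this count is a description only.

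Spermidine is also the donor for hypusine, the modified lysine of the translation factor eIF5A. Deoxyhypusine hydroxylase (Dohh), which completes hypusine, fell from 78.5 ± 5.82 to 51.5 ± 1.17 FPKM (-0.60 ± 0.07, limma adjusted p = 0.000155). Eif5a itself fell from 1416 ± 37.2 to 1088 ± 14.2 FPKM (-0.38 ± 0.06, limma adjusted p = 0.000788), and its low paralog Eif5a2 rose from 2.84 ± 0.133 to 4.62 ± 0.00264 FPKM (0.55 ± 0.12, or 0.30 with a pseudocount of 5, limma adjusted p = 0.00441). Deoxyhypusine synthase (Dhps) was lower by 0.37 (limma adjusted p = 0.00485), a call lost if control library 2 or IL-22 library 1 was left out (0.000107 to 0.063 over 14 alternatives by limma adjusted p). In the list of polyamine synthesis and control, which leaves out the 10 enzymes and Azin2, 2 genes (Oaz2 and Eif5a2) were higher and 7 lower of 10 tested, with a median of -0.37. Beside this, 27.6% of all tested rows were called higher and 30.8% lower. The list was chosen with earlier results of these data known, so its count is a description only.

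Sat1 was at 8.68 and 10.6 FPKM without IL-22 and 35.3 and 33.0 FPKM with it. Both IL-22 libraries lay above both controls, and the acetyltransferase gene rose 3.54-fold (1.73 ± 0.10, limma adjusted p = 2.43e-06), with 1.36% of tested rows showing a larger difference in size. The other enzymes that acetylate or oxidise polyamines were higher too. Spermine oxidase (Smox) was at 2.36 and 2.62 FPKM without IL-22 and 8.49 and 9.74 FPKM with it, a 3.66-fold rise (1.53 ± 0.12, or 0.91 with a pseudocount of 5, limma adjusted p = 1.22e-05). Paox, the peroxisomal oxidase that acts on acetylated polyamines, rose from 6.24 ± 0.0325 to 8.64 ± 0.242 FPKM (0.41 ± 0.10, limma adjusted p = 0.00713). Sat2, a relative of Sat1, was higher by 0.68 (limma adjusted p = 0.00395), or by 0.39 with a pseudocount of 5, a call lost without control library 1 (limma adjusted p = 0.0501, and 0.000193 to 0.0501 over 13 alternatives). These 4 genes, likewise grouped after their values were seen, had a median of 1.10. All 4 were called higher, beside 27.6% of all tested rows. As the group was formed after the fact, this too is a description only.

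Atp13a3 and Atp13a2, ATPases that transport polyamines across cell membranes, rose as well. Atp13a3 went from 21.0 ± 4.30 to 38.5 ± 2.47 FPKM (0.86 ± 0.12, limma adjusted p = 0.000361) and Atp13a2 from 18.9 ± 0.142 to 25.4 ± 1.42 FPKM (0.41 ± 0.08, limma adjusted p = 0.00232). Methylthioadenosine, the by-product of Srm and Sms, is returned to methionine by a salvage route. Of 5 genes of this route, also grouped after their values were seen, 4 were lower and 1 higher. Across all tested rows 30.8% were called lower and 27.6% higher. Mtap, the first enzyme of the route, fell from 21.0 ± 1.94 to 11.6 ± 1.92 FPKM (-0.81 ± 0.12, limma adjusted p = 0.000395), Enoph1 fell from 111 ± 8.46 to 66.5 ± 3.35 FPKM (-0.73), and Adi1 (-0.72) and Mri1 (-0.62, or -0.41 with a pseudocount of 5) fell with them, while Apip rose by 0.36. The whole list of breakdown, transport and salvage, which also holds Slc3a2, had 7 genes higher and 4 lower of 11 tested, with a median of 0.41.

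**Figure D3:**
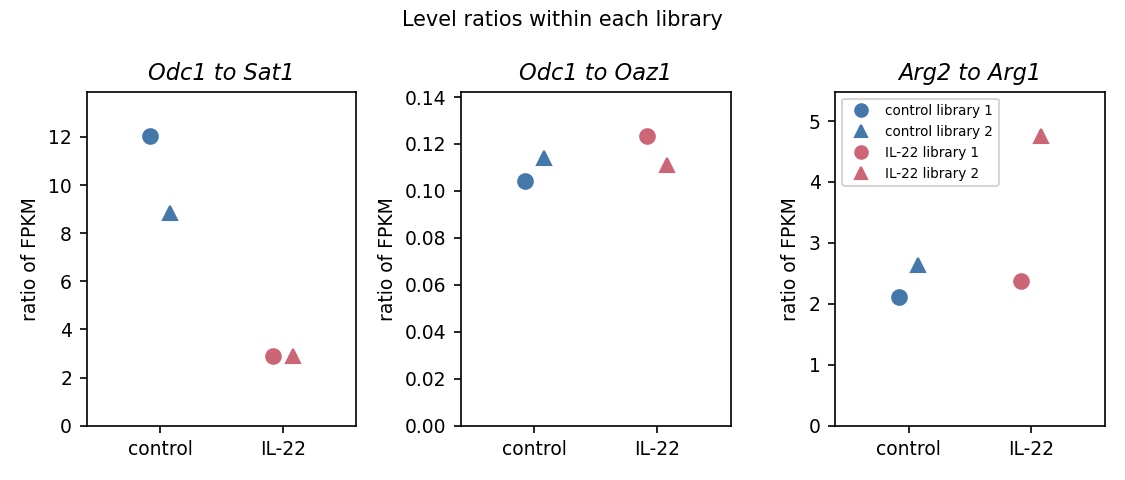
Ratio of FPKM between 2 genes of the same library, with circles for library 1 and triangles for library 2. Odc1 to Sat1 is 12.1 and 8.85 in controls and 2.88 and 2.90 with IL-22, while Odc1 to Oaz1 overlaps between the groups and Arg2 to Arg1 rests on values under 1 FPKM.

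Set against each other in the same library, Odc1 exceeded Sat1 by 12.1 and 8.85 times in controls and by 2.88 and 2.90 times with IL-22. The ratio moved through Sat1, as Odc1 did not pass. Arg2 exceeded Arg1 by 2.12 and 2.65 times in controls and by 2.38 and 4.76 times with IL-22, where the groups overlap. An exact permutation test of 2 libraries against 2 cannot go below p = 0.33, so no test of these ratios is given.

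In level, both controls gave the same order of the 10 enzymes: Oaz1, Srm, Odc1, Gch1, Sat1, Asl, Arg2, Arg1, Nos2 and Ass1. Both IL-22 libraries gave another, with Gch1 second and Srm behind Odc1, and with Nos2 above both arginases. Neighbours in either order did not overlap in FPKM between the libraries of a group, except Nos2 and Ass1, which were both listed at 0 in control library 1.

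**Figure D4:**
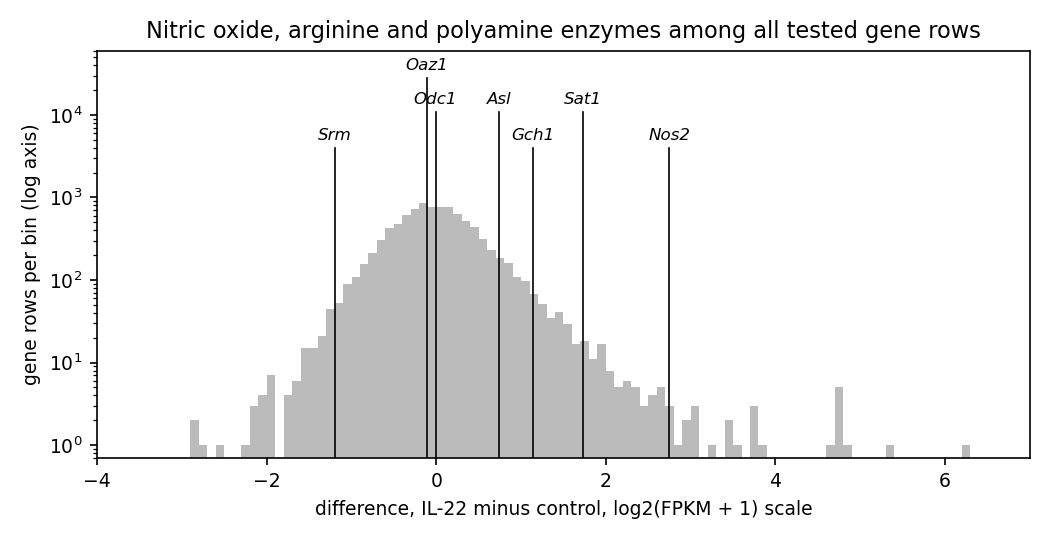
Histogram of the differences of all 9485 tested rows in bins of 0.1 on a log axis, with vertical lines at the 7 tested enzymes. Odc1 and Oaz1 stand at the centre, Srm in the lower tail at -1.20, and Sat1 and Nos2 in the upper tail at 1.73 and 2.75.

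Taking the 6 pathway lists as 1 set without the 10 enzymes, 19 genes were higher and 18 lower of 45 tested, with a median of 0.046, and 21 of the 66 genes with a row were not tested. The 37 calls are 82.2% of the 45, beside 58.4% of all rows. The lists were chosen with earlier results of these data known, so a higher share is no result about these pathways. The difference in share was not tested. Slc7a1, Pycr1 and Smox were among the higher genes and Mat2a, Sms and Mtap among the lower.

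**Figure D5:**
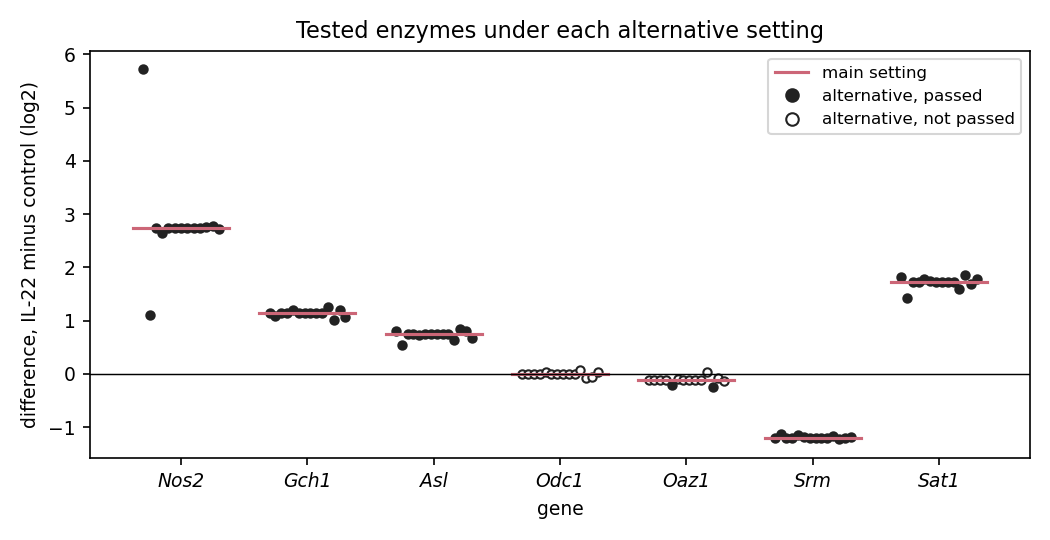
Difference of each tested enzyme, IL-22 minus control in log2, under each alternative setting (points, filled where called) and in the main setting (red line). Nos2 spreads from 1.11 to 5.72 with the pseudocount, Oaz1 is called under 2 alternatives, and Gch1, Asl, Srm and Sat1 keep their direction and call in each.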

How the data were processed

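Gene levels are FPKM as deposited by the authors (fragments per length and per library), 1 column per library. The submitters' processing notes name TopHat2, Cuffdiff and build rn5, with no versions or roles. The sources used here give no annotation, filter or strand, so overlapping or antisense genes, and near-identical copies and processed pseudogenes (possible for Odc1, Oaz1 and Eif5a), cannot be told apart. A second table, of lncRNAs, was not used.

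FPKM are not counts, so log2(FPKM + 1) was fitted by limma 3.58.1 under R 4.3.3 (trended eBayes, two-sided, no covariates) over the 9485 rows whose mean reached 1 FPKM. Folds are ratios of mean FPKM, and differences understate changes of low genes. The files hold no read totals, so counting intervals cannot be given. An exact 0 can be a failed estimate. The enzymes and lists were chosen with earlier results of these data known. Of 68 pathway genes 66 had a row, some through a RefSeq synonym (GRCr8). All 10 enzymes were named, with the 3 largest called genes and the highest gene not called of each list, further genes (Slc7a1, Slc7a2, Azin1, Amd1, Smox and Sms), and others that complete a list and were named after their values were seen. A few genes enter the counts of their lists but are not reported here one by one, nor drawn. Alternatives were other pseudocounts (0.1 and 5), no minimum or one of 5 FPKM, quantile normalization, median-of-ratios scaling, limma without trend or robust, a replicate block, summed rows of a symbol, and leaving out each library. The fit was tested on simulated data. Python 3.11.15, pandas 2.3.3 and matplotlib 3.10.9 made tables and figures.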

Additional observations from a re-analysis of the deposited data

How the results depend on the processing

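The calls of Gch1, Asl, Srm and Sat1 held under all 14 alternatives. Nos2 was called under the 13 that tested it, since a minimum of 5 FPKM leaves it out. It passed the main minimum through the IL-22 libraries only, and such a tested row had to differ, so these calls of Nos2 add no support. The number of enzymes called higher ran from 3 to 5. The number called lower was 2 with quantile normalization, through Oaz1, and ran from 1 to 2 when single libraries were left out. Pathway genes called ran from 15 to 22 higher and from 14 to 18 lower. With the replicate number as a block, 4 enzymes were higher and 1 lower, and Qdpr was called (0.17, limma adjusted p = 0.0478), as it was with quantile normalization (0.25, limma adjusted p = 0.0176). Same-numbered libraries did not deviate together (r = -0.0020 across 9485 rows), so the numbers were not taken as pairs.

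Differences that changed sign were all of genes that did not pass in either fit. With quantile normalization these were Odc1 (0.033), Nos1ap (-0.18), Pcbd1 (-0.12) and Slc25a15 (-0.15). With 1 library left out, Odc1 ran from -0.085 to 0.067, Oaz1 from -0.25 to 0.031, Nosip from -0.022 to 0.095, Nos1ap from -0.066 to 0.21, Pts from -0.35 to 0.25, Pcbd1 from -0.041 to 0.20, Slc25a15 from -0.013 to 0.035 and Mat2b from -0.035 to 0.13. The cause of these changes was not tested. Leaving out 1 library assumes that the remaining one of its group varies as the other group does. Unknown depth limits what can be said of genes under 1 FPKM, which include Ass1, Arg1, Arg2 and the controls of Nos2.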
